A study of Mus musculus with 10 samples.

Results

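The 40 genes described here encode the proteins that mark replication origins, load and switch on the replicative helicase and copy DNA at the fork, together with 3 factors that supply the new DNA with histones. They were listed by symbol and role, with no threshold on their values, and all 40 were found among the 24391 genes of the count files. The list was chosen with earlier results of these data known, so its counts and medians are a description. RNA-seq counts came from 5 cell lines derived from mouse small cell lung cancer (SCLC), a neuroendocrine lung tumour: G4314, G9351, G9488, G9529 and G9577. All lines share 1 labelled genotype, with altered Rb and p53, a MYCN transgene behind a tetracycline response element (TRE-MYCN), and the doxycycline-dependent activator RTTA behind a removable stop cassette (LSL-RTTA). Each line gave 1 library in doxycycline (MYCN on, 5 libraries) and 1 from cells kept 4 days without the drug (MYCN off, 5 libraries), so each line is compared with itself. The promoter of RTTA, the cells in which the cassette was opened, and the age of the mice are not given in the sources used here. Every line with doxycycline carries the transgene, so the drug and MYCN cannot be told apart. All values below are relative to the RNA of a library, and in such bulk samples fewer cycling cells and less of a transcript per cell cannot be told apart.

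Before a cell can copy its genome, the origin recognition complex (ORC), with Cdc6 and Cdt1, places the ring of Mcm2 to Mcm7 on DNA, a step called licensing. The kinase Dbf4-Cdc7, with Mcm10, Cdc45 and the GINS complex, then turns the ring into a working helicase, which is firing. Elongation needs primase and DNA polymerases alpha, delta and epsilon, the sliding clamp Pcna, its loader replication factor C (RFC), the single-strand binder replication protein A (RPA), and the enzymes Fen1 and Lig1 that join the lagging strand. Many of these genes are known targets of E2F transcription factors, which the Rb protein holds back, and several are also known MYC targets. In SCLC, loss of Rb is a defining lesion.

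The libraries held between 9586465 and 11960074 counts, and none of the 40 genes fell below 47 counts in any of them. Mycn, the gene name under which the reads were counted, went up in each line in doxycycline, with log2 changes of 1.61, 4.16, 2.23, 2.85 and 3.50 in G4314, G9351, G9488, G9529 and G9577. The labels do not say whether the transgene is the mouse or the human gene. Levels are CPM, counts scaled with TMM factors to the library's total over the genes tested. Values of the 5 lines are given in this order throughout. G9577 stands apart from the other lines and from its SCLC label. The 9 neuroendocrine markers summed to 224 and 174 CPM in G9577, and in the other lines to 3256 to 4033 CPM with MYCN on and 5107 to 6557 CPM with MYCN off. In the fit, 6 of the 9 were lower with MYCN on and 0 higher. The 10 mesenchymal markers summed to 3499 and 17048 CPM in G9577 and to 2.47 to 22 in the others. The 6 immune markers summed to at most 6.46 CPM outside the G9577 library with MYCN off, where they reached 60.3, mainly from Lyz2. The 5 endothelial markers summed to 8.59 to 150 CPM with MYCN on and 50.2 to 462 CPM with MYCN off, mainly Vwf and, in G9577, Kdr, while the defining marker Cdh5 was at most 0.45 CPM. The part of these cell markers in the changes below was not tested. The main counts and the values of some single genes are therefore also given without G9577.

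With MYCN on, 12 of the 40 replication genes were higher and 0 were lower, at an adjusted p below 0.05 in edgeR's quasi-likelihood test with the line as a block. Among all 12835 genes tested, 15.3% were called higher and 15.6% lower. The fitted change was positive for all 40 genes, and for 5760 of the 12835 genes tested. The median log2 change of the 40 was 0.73, against -0.085 over all genes tested. By role, the test called 2 of 11 licensing genes, 3 of 8 firing genes, 3 of 8 genes of polymerases and primase, 2 of 5 of clamp and loader, 1 of 3 of RPA, 0 of 2 of lagging-strand joining and 1 of 3 of chromatin supply. The largest rises were those of the firing factors Mcm10 (3.6-fold) and Dbf4 (2.98-fold). Another 11 genes had an unadjusted p below 0.05 and did not pass after adjustment. In all, 23 of the 40 genes were below this unadjusted cut-off, and so were 5800 of the 12835 genes tested.

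**Figure D1:**
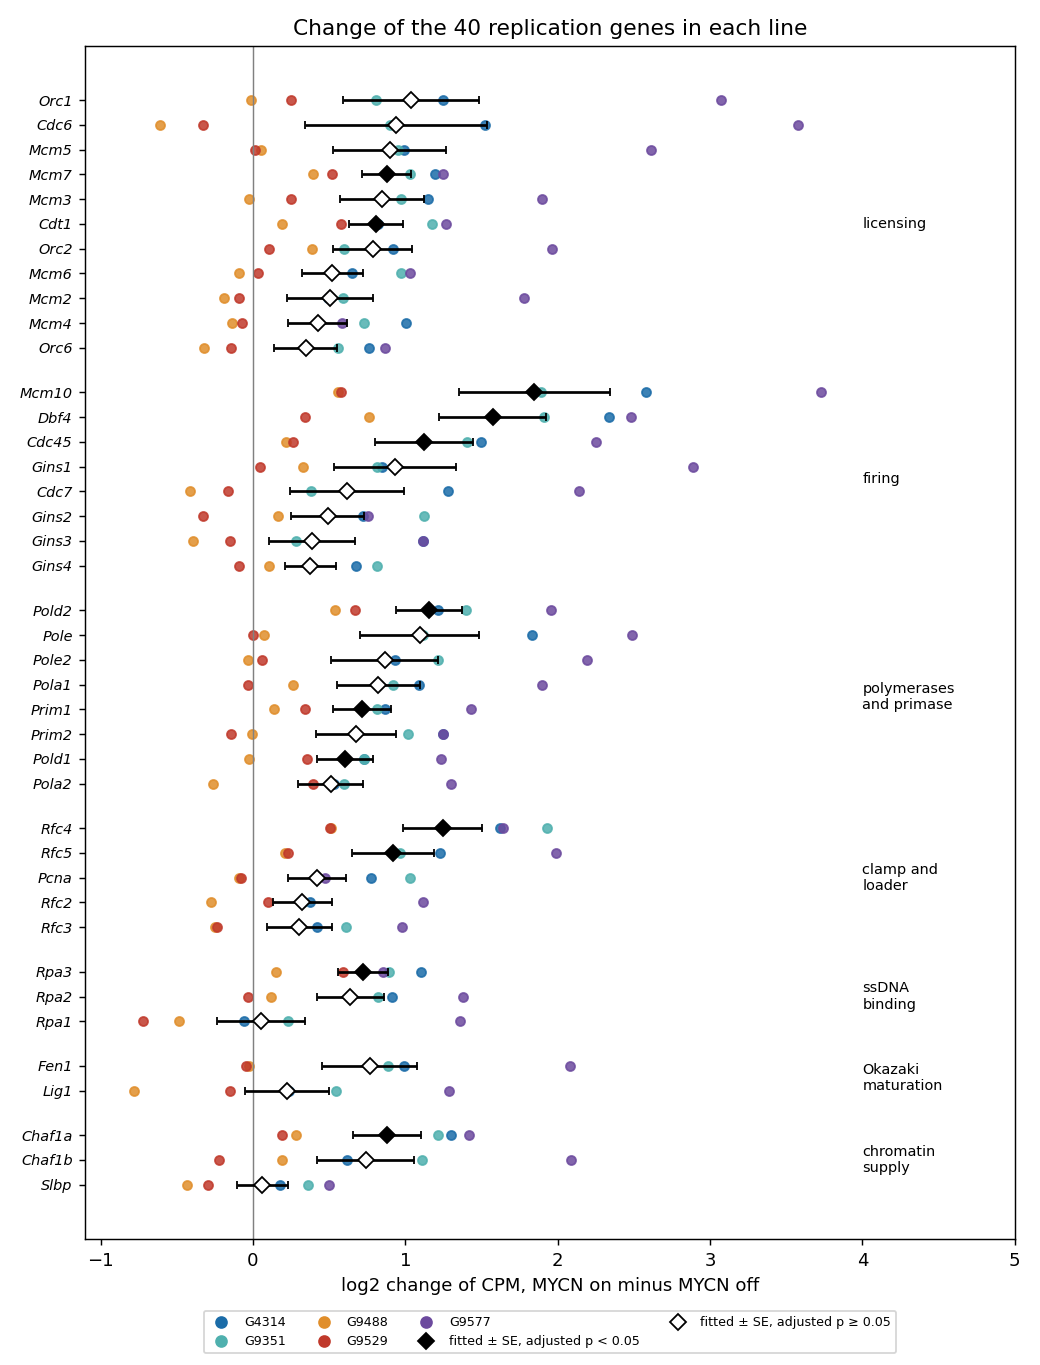
Log2 change of CPM, MYCN on minus MYCN off, on the horizontal axis for the 40 replication genes, grouped by role; coloured points are the 5 lines, and diamonds are the fitted change ± SE, filled where the adjusted p was below 0.05. The 12 filled diamonds lie between 0.60 (Pold1) and 1.85 (Mcm10), while the points of G9488 lie between -0.78 and 0.76, those of G9529 between -0.72 and 0.67, and those of G9577 reach 3.73.

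These calls depended on which lines were in the fit. Without G4314, and likewise without G9351, only Mcm7 and Pold2 stayed past the threshold, and in edgeR without the line block 0 of 40 did. Of all genes tested, 6.64% were higher without G4314, 6.32% without G9351 and 1.68% without the block. DESeq2 called 18 of the 40 genes and limma-voom 14, and they called 17.8% and 16.3% of all genes tested higher. Without G9577 the count was 12, of which 11 were among the original 12, and 17.4% of all genes tested were higher. The median log2 change of the 40 genes fell to 0.49 there.

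Of the licensing genes, Mcm7 and Cdt1 were called higher. Mcm7, a subunit of the helicase ring (mm9 chromosome 5, 138605817 to 138613090, minus strand), stood at 172, 172, 219.7, 207 and 246 CPM with MYCN on, and at 75.2, 84.1, 167, 144 and 104 CPM with MYCN off. Each library with MYCN on lay above all 5 with MYCN off, which held for 4 of the 40 genes (Mcm7, Orc2, Dbf4 and Pold2) and for 6.35% of all genes tested. The rise was 1.84-fold (log2 change 0.88, SE 0.16, adjusted p = 0.00952). Cdt1, which brings the ring to the origin (chromosome 8, 125091915 to 125097030, plus strand), stood at 133, 132, 167, 254 and 244 CPM with MYCN on, and at 75.3, 58.6, 147, 170.1 and 101 CPM with MYCN off. It was higher with MYCN on within each line, but the groups overlapped, since G4314 and G9351 with MYCN on lay below G9488 and G9529 with MYCN off (1.75-fold; log2 change 0.81, SE 0.18, adjusted p = 0.0158).

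The ring's other subunits did not pass. Mcm3 had the smallest adjusted p among them (0.0528; log2 change 0.85), followed by Mcm6 (0.0844), Mcm5 (0.102), Mcm4 (0.129) and Mcm2 (0.201). Their fitted log2 changes ran from 0.42 in Mcm4 to 0.90 in Mcm5. Mcm5 changed by 0.99, 0.95, 0.055, 0.015 and 2.61 in the 5 lines, and without G9577 its fitted change was 0.51. Of the ORC genes, Orc2 missed the threshold (log2 change 0.79, adjusted p = 0.0557) although its groups did not overlap. It passed without G9577, where its adjusted p was 0.0347. Orc1, the largest ORC subunit, stood at 24.4, 22, 15.1, 15.3 and 47.3 CPM with MYCN on, and at 10.1, 12.5, 15.2, 12.9 and 5.45 CPM with MYCN off. The high value of G9577 with MYCN on stands apart, and the fitted change of 1.04 had an SE of 0.45 (adjusted p = 0.113). Orc6 had the smallest fitted change of the licensing genes. It stood at 104, 93, 87.3, 115 and 118 CPM with MYCN on, and at 60.9, 63, 109, 127 and 64.6 CPM with MYCN off, higher in 3 lines and lower in G9488 and G9529 (log2 change 0.35, SE 0.21, adjusted p = 0.23). Cdc6, the ATPase that recruits Cdt1, moved by 1.52, 0.90, -0.61, -0.33 and 3.57, the widest range of the licensing genes (adjusted p = 0.256).

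The upstream sequence of Mcm7 and Cdt1 is shown because they are the licensing genes that passed the test. The stretches are the 250 bases before the annotated start of the upstream-most transcript, from RefSeq, on the strand of the gene. Capitals mark the letters of an E2F site (TTTCCCGC, TTTGGCGC, TTTCGCGC or TTTGCCGC on either strand) or of the E-box CACGTG, to which MYC proteins bind.
Mcm7 (GRCm38.p6, chr5:138171884-138172133, minus strand): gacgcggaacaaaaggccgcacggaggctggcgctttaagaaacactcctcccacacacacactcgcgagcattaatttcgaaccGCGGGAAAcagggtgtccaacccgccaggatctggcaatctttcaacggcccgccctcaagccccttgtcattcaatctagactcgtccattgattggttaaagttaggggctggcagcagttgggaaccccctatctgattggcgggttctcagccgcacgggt
Cdt1 (GRCm38.p6, chr8:122567765-122568014, plus strand): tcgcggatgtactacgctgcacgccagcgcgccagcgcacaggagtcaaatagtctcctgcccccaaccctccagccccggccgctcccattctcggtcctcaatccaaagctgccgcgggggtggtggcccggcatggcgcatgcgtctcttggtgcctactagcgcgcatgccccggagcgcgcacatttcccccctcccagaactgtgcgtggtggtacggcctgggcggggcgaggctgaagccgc
The Mcm7 stretch holds 1 match, an E2F form 165 bases upstream of the start, and the Cdt1 stretch holds 0. In both genes a further E2F form lies just inside the transcript, 16 and 32 bases after the start. These sites are shown with their neighbours, next to those of 3 licensing genes that did not pass, since the letters are alike in both (GRCm38.p6, capitals mark the E2F form).
Mcm7 (chr5:138171852-138171875, minus strand): tgacgacgTTTCGCGCcaatttcg
Cdt1 (chr8:122568039-122568062, plus strand): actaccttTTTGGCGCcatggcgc
Mcm6 (chr1:128359737-128359760, minus strand): tggacgggTTTGGCGCgaagtagc
Orc1 (chr4:108579419-108579442, plus strand): ggttagtgGCGCGAAAagttttct
Cdc6 (chr11:98908005-98908028, plus strand): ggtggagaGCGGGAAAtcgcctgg
A match of letters is a description and does not show that a factor binds there.

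The firing genes Mcm10 and Dbf4 held the largest changes of the 40. As a group, the firing genes had a median log2 change of 0.77, against 0.81 for licensing genes. Mcm10, which helps open the loaded helicase (chromosome 2, 4911770 to 4933837, minus strand), stood at 65.5, 51.2, 68.1, 39.6 and 149 CPM with MYCN on, and at 10.8, 13.7, 46.3, 26.5 and 11 CPM with MYCN off. It rose in each line, by 2.58, 1.89, 0.56, 0.58 and 3.73 on the log2 scale (3.6-fold; log2 change 1.85, SE 0.50, adjusted p = 0.0302), and the groups overlapped through G9488 and G9529. Dbf4, the regulatory subunit that activates the kinase Cdc7 (chromosome 5, 8396969 to 8422716, minus strand), stood at 124, 76.3, 112, 83 and 195 CPM with MYCN on, and at 24.4, 20.2, 66.1, 65.3 and 34.7 CPM with MYCN off. Its lowest value with MYCN on exceeded its highest with MYCN off (2.98-fold; log2 change 1.57, SE 0.35, adjusted p = 0.0168). Cdc45, the helicase cofactor that travels with the ring (chromosome 16, 18780540 to 18812065, minus strand), stood at 138, 56.5, 85.6, 82.3 and 101 CPM with MYCN on, and at 48.7, 21.3, 73.7, 68.6 and 21 CPM with MYCN off. It was higher with MYCN on in 5 of 5 lines (2.18-fold; log2 change 1.12, SE 0.32, adjusted p = 0.0356), by a small margin in G9488 and G9529.

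Cdc7, the kinase subunit itself, moved by 1.28, 0.38, -0.41, -0.17 and 2.14 and did not pass (adjusted p = 0.236). Dbf4 changed more than Cdc7 in 5 of 5 lines, with differences between 0.34 and 1.53. None of the 4 GINS genes passed. Their fitted log2 changes were 0.93 for Gins1, 0.49 for Gins2, 0.39 for Gins3 and 0.38 for Gins4, with adjusted p between 0.111 and 0.313. Gins4 stood at 65.1, 70.8, 74.8, 65.1 and 89.7 CPM with MYCN on, and at 40.6, 40.2, 69.6, 69.3 and 69 CPM with MYCN off. The lowest levels were those of G4314 and G9351 with MYCN off, and of the lines only G9529 was lower in doxycycline (log2 change 0.38, SE 0.17, adjusted p = 0.12). Gins1 rose by 2.89 in G9577, from 5.23 to 40 CPM, and by at most 0.84 in the other lines. Gins2 shares 11.4% of its exon bases with Gse1, and reads there were not counted.

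Of the polymerase and primase genes, Pold2, Prim1 and Pold1 were called higher. Pold2, the accessory subunit of polymerase delta (chromosome 11, 5772183 to 5778259, minus strand), stood at 123, 139, 143, 116 and 263 CPM with MYCN on, and at 52.8, 52.6, 98.3, 73 and 67.6 CPM with MYCN off. The groups did not overlap, and the level of G9577 with MYCN on was well above the others (2.23-fold; log2 change 1.16, SE 0.22, adjusted p = 0.0101). Without G9577 the log2 change of Pold2 was 0.97. Pold2 shares 4.29% of its exon bases with Aebp1. Prim1, the catalytic subunit of primase (chromosome 10, 127452271 to 127467086, plus strand), stood at 164, 197, 265, 191 and 139.7 CPM with MYCN on, and at 89.8, 112, 241, 151 and 51.7 CPM with MYCN off. It rose in 5 of 5 lines (1.64-fold; log2 change 0.72, SE 0.19, adjusted p = 0.0305). Pold1, the catalytic subunit of polymerase delta (chromosome 7, 51788114 to 51804185, minus strand), stood at 153, 132, 146, 171 and 166 CPM with MYCN on, and at 92, 79.7, 148, 134 and 70.5 CPM with MYCN off. It did not rise in G9488, and its call was the weakest of the 12 (1.52-fold; log2 change 0.60, SE 0.18, adjusted p = 0.0436). The call was lost with library size alone, with RLE factors and when any line other than G9488 was left out.

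The other 5 genes of this group did not pass. Pole, the catalytic subunit of polymerase epsilon, had a log2 change of 1.09 with an SE of 0.39 (adjusted p = 0.0687), after changes of 1.83, 1.12, 0.073, 0.0011 and 2.49 in the lines. Pola1, the catalytic subunit of polymerase alpha, had an adjusted p of 0.0561, Prim2 one of 0.0854 and Pole2 one of 0.0971. Pola2 had the smallest change and stood at 85.5, 84.1, 172, 113 and 103 CPM with MYCN on, and at 59, 55.5, 206, 86.4 and 42 CPM with MYCN off. Its level in G9488 was high in both conditions and lower in doxycycline (log2 change 0.51, SE 0.21, adjusted p = 0.102). The 250 bases upstream of Pold2 are shown as those of the polymerase gene with the smallest p. They hold neither an E2F form nor the E-box.
Pold2 (GRCm38.p6, chr11:5878257-5878506, minus strand): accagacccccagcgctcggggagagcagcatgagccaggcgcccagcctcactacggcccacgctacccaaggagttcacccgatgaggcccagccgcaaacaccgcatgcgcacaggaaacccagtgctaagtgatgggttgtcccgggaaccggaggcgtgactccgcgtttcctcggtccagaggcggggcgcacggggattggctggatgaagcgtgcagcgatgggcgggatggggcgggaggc

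In the clamp and its loader, Rfc4 and Rfc5 were called higher and Pcna, Rfc2 and Rfc3 did not pass. Rfc4 (chromosome 16, 23114021 to 23127803, minus strand) stood at 119, 57.8, 90.6, 68.7 and 82 CPM with MYCN on, and at 38.4, 15, 63.4, 48.4 and 26.2 CPM with MYCN off. It was higher in each line, and its groups overlapped because G9488 with MYCN off lay above G9351 with MYCN on (2.37-fold; log2 change 1.24, SE 0.26, adjusted p = 0.0136). Rfc4 shares 13.2% of its exon bases with Eif4a2. Rfc5 (chromosome 5, 117829154 to 117839032, minus strand) stood at 115, 112, 141, 98.6 and 145 CPM with MYCN on, and at 48.9, 57.3, 122, 83.9 and 36.5 CPM with MYCN off. It rose 1.89-fold (log2 change 0.92, SE 0.27, adjusted p = 0.0392), in 5 of 5 lines. Rfc3 had the smallest change and stood at 58.3, 61.2, 44.1, 58.9 and 75.2 CPM with MYCN on, and at 43.6, 40, 52.4, 69.4 and 38.1 CPM with MYCN off, higher in 3 lines and lower in G9488 and G9529 (log2 change 0.30, SE 0.21, adjusted p = 0.297). Rfc4 and Rfc3 were picked as the loader genes with the largest and smallest fitted change, so their order within lines is a description. Rfc4 changed more than Rfc3 in 5 of 5 lines, by 0.66 to 1.32 on the log2 scale.

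Pcna, the ring that holds the polymerases on DNA (chromosome 2, 132075022 to 132078916, minus strand), stood at 169, 163, 208, 193 and 171 CPM with MYCN on, and at 98.7, 79.7, 221, 204 and 123 CPM with MYCN off. With MYCN on its 5 values lay within 163 to 208 CPM, while with MYCN off G9488 lay above this range, G9529 within it and the other 3 lines below it (log2 change 0.42, SE 0.19, adjusted p = 0.131). The upstream stretches of Rfc4 and Pcna, a loader subunit that passed and the clamp that did not, are given for comparison. Neither holds an E2F form or the E-box.
Rfc4 (GRCm38.p6, chr16:23127731-23127980, minus strand): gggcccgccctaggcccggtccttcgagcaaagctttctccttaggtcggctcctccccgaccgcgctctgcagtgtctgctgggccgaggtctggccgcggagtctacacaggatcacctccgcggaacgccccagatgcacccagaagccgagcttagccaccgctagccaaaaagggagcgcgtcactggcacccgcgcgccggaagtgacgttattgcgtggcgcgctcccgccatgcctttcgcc
Pcna (GRCm38.p6, chr2:132253181-132253430, minus strand): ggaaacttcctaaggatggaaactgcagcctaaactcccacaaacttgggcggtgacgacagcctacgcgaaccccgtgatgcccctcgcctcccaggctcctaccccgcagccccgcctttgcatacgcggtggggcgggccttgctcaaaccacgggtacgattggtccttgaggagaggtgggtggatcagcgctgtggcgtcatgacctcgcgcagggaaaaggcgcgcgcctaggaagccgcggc

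Of the RPA genes only Rpa3, the smallest subunit (chromosome 6, 8205936 to 8209141, minus strand), was called higher. It stood at 76.6, 86, 79.6, 76.1 and 67 CPM with MYCN on, and at 35.5, 46.2, 71.6, 50.5 and 37 CPM with MYCN off. It was higher in 5 of 5 lines, by only 0.15 on the log2 scale in G9488 (1.65-fold; log2 change 0.72, SE 0.17, adjusted p = 0.0181). Rpa1, the largest subunit, stood at 295, 267, 244, 216 and 577 CPM with MYCN on, and at 307, 227, 341, 355 and 225 CPM with MYCN off. It was higher in G9351 and G9577 and lower in the other 3 lines (log2 change 0.055, SE 0.29, adjusted p = 0.897), and without G9577 its fitted log2 change was -0.25. Rpa2, the middle subunit, lay between them (log2 change 0.64, adjusted p = 0.0633). Rpa3 and Rpa1 were likewise picked as the largest and smallest fitted change of the RPA genes. Rpa3 changed more than Rpa1 in 4 of 5 lines, and less in G9577.

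Neither enzyme of lagging-strand joining passed. Fen1, the flap nuclease, stood at 168, 123, 387, 123 and 178 CPM with MYCN on, and at 84.5, 66.2, 394, 127 and 41.7 CPM with MYCN off. G9488 was the highest line in both conditions and changed there by -0.028 (log2 change 0.77, SE 0.31, adjusted p = 0.099). Lig1, the ligase, stood at 213, 193, 182, 232 and 220.5 CPM with MYCN on, and at 181, 132, 312, 258 and 90.1 CPM with MYCN off. Its 5 values with MYCN on lay close together, and G9488 and G9529 were higher with MYCN off (log2 change 0.23, SE 0.28, adjusted p = 0.549). In chromatin supply, Chaf1a, the large subunit of the histone chaperone CAF-1 (chromosome 17, 56179839 to 56207449, plus strand), stood at 157, 120.2, 175, 136 and 188 CPM with MYCN on, and at 63.5, 51.7, 143, 119 and 70.2 CPM with MYCN off. It rose 1.84-fold (log2 change 0.88, SE 0.22, adjusted p = 0.0246), in 5 of 5 lines. Its partner Chaf1b did not pass (log2 change 0.74, adjusted p = 0.112). Slbp, which binds histone messenger RNA, stood at 105, 92.6, 87.7, 99.3 and 121 CPM with MYCN on, and at 92.9, 72.1, 118, 122 and 85.7 CPM with MYCN off, a fitted log2 change of 0.063 (SE 0.17, adjusted p = 0.792).

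**Figure D2:**
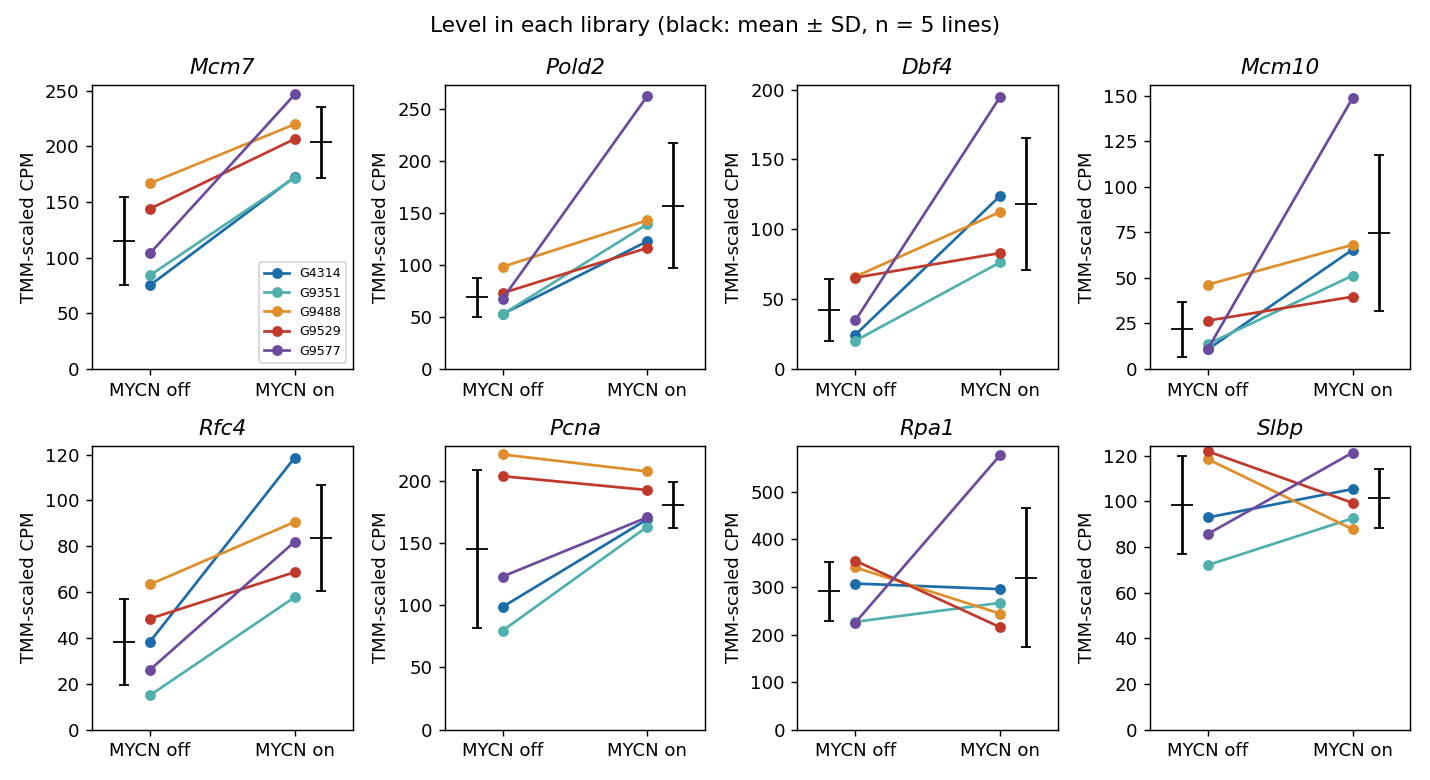
TMM-scaled CPM on the vertical axis in each library for 8 replication genes; lines join the library with MYCN off and the library with MYCN on of each cell line, and black bars are the mean ± SD (n = 5 lines). Mcm7, Pold2, Dbf4, Mcm10 and Rfc4 rise in each line, while Pcna, Rpa1 and Slbp rise in some lines and fall in others.

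The lines differed in how far these genes moved. The median log2 change of the 40 genes was 0.96, 0.90, 0.026, 0.025 and 1.42 in the 5 lines, and -0.04, 0, -0.0051, -0.025 and -0.23 over all genes tested. Of the 40 genes, 39, 40, 20, 22 and 40 were higher with MYCN on in the respective lines. Of all 12835 genes tested, 6156, 6405, 6353, 6163 and 5230 were. In G9351 and G9577 all 40 were higher, in G4314 all but Rpa1, and in G9488 and G9529 about as many were lower as higher. In all, 15 of the 40 genes were higher in all 5 lines (37.5%), against 20.9% of all genes tested. With 1 library for each line and condition, the difference between lines could not be tested.

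**Figure D3:**
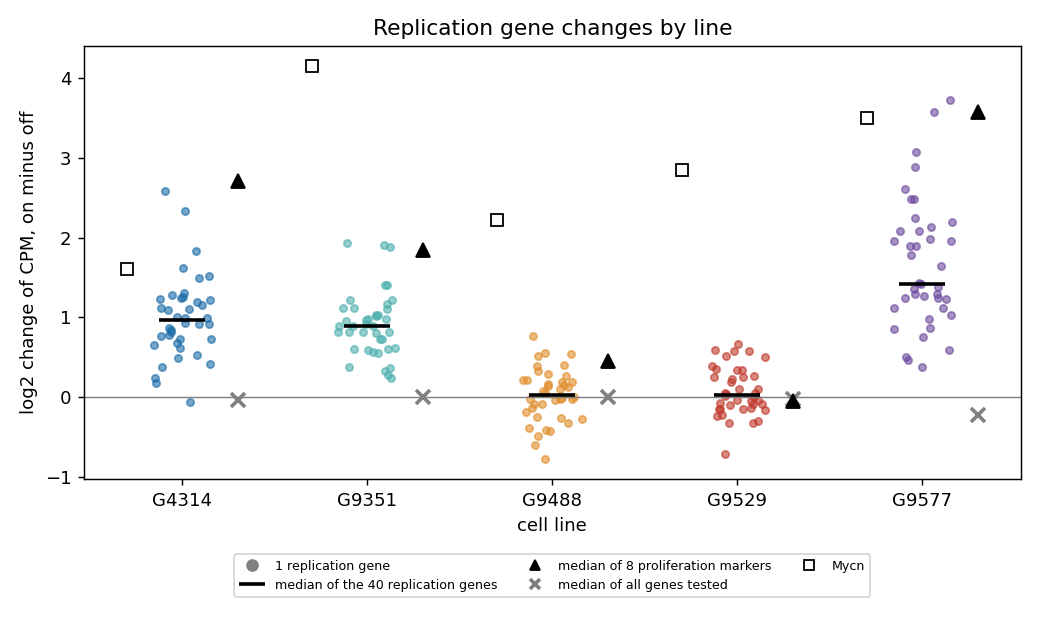
Log2 change of CPM, on minus off, on the vertical axis for each of the 40 replication genes (points) in each line, with their median (bar), the median of 8 proliferation markers (triangle), the median of all genes tested (cross) and Mycn (square). The bars lie between 0.025 and 1.42 and are lowest in G9488 and G9529, where the triangles are lowest too, while the squares follow another order.

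The change of Mycn was smallest in G4314 (1.61), where the replication genes moved by a median of 0.96, and was 2.85 in G9529, where they moved by 0.025. The order of the lines by Mycn was not their order by replication genes, and the part of the Mycn change in these differences was not tested. Markers of proliferating cells are given beside these values. The median log2 change of 8 such markers (Mki67, Top2a, Ccna2, Ccnb1, Cdk1, Bub1, Plk1 and Aurkb) was 2.71, 1.85, 0.46, -0.045 and 3.58. Their summed level was 2789.7, 1985, 2590.3, 1818 and 4113 CPM with MYCN on and 422, 516, 2066, 1972 and 769 CPM with MYCN off. In the fit, 4 of the 8 were called higher (Top2a, Cdk1, Bub1 and Aurkb), against 15.3% of all genes tested. These 4 calls were lost without G4314, without G9351 and without the line block. Top2a and Cdk1 were also lost without G9488 and without G9577, and Cdk1 with RLE factors and with library size alone. Mki67, the standard proliferation marker, changed by 2.65, 1.55, 0.033, -0.28 and 2.95 (adjusted p = 0.0872). The part of the proliferating fraction in the changes of the replication genes was not tested.

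The levels of the lines differed more with MYCN off than with MYCN on, a comparison added after the data were seen. The 40 genes summed to 5717, 4888, 6338, 5678 and 7425 CPM with MYCN on, and to 3226, 2773, 6474, 5508 and 2641 CPM with MYCN off. The sums of G9488 and G9529 with MYCN off lay within the range seen with MYCN on, and those of the other 3 lines lay below it. The coefficient of variation (CV, the SD as a percent of the mean) over the 5 lines was larger with MYCN off for 37 of the 40 genes. Its median over the genes was 22.7% with MYCN on and 46.4% with MYCN off. Over the 12071 genes tested that had a count in every library, the medians were 33.5% and 37.6%, and 58.9% had the larger value with MYCN off. The exceptions were Orc1, Pold2 and Rpa1, whose G9577 value with MYCN on was far above the other lines. Rfc2 was the most even gene with MYCN on, with a CV of 4.13% against 34.7% with MYCN off, and Pcna had 10.4% against 43.7%. Without G9577 the count was 39 of 40, and it was at least 34 without any other line. These CVs describe the 5 lines and were not tested.

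**Figure D4:**
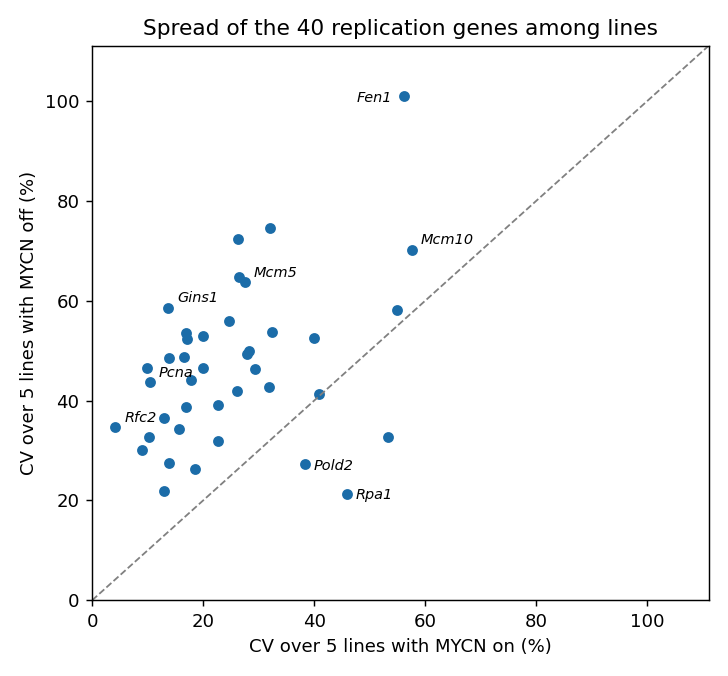
Coefficient of variation over the 5 lines in percent, with MYCN on (horizontal axis) and with MYCN off (vertical axis), 1 point for each of the 40 replication genes; the dashed line marks equal values. All points but 3 lie above the line, and Fen1 is highest on the vertical axis at 101%.

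Levels can be compared between genes per length of exon (RPKM, the CPM divided by exon length in kilobases). Among the helicase ring with MYCN on, Mcm2 was highest at 161 ± 32.3 RPKM (SD, n = 5 lines), followed by Mcm6 at 148 ± 20.6, Mcm3 at 119 ± 33.5, Mcm5 at 88.4 ± 24.3, Mcm7 at 84.9 ± 13.3 and Mcm4 at 72 ± 29.4. Neighbours in this order differed by 3.54 to 30.2 RPKM, in each case less than the larger of their SDs over lines. Compared within lines, Mcm3 lay above Mcm5 in 5 of 5 lines and Mcm6 above Mcm3 in 4 of 5, while Mcm2 lay above Mcm6 in 2 of 5 and Mcm5 above Mcm7 in 3 of 5. With MYCN off Mcm7 had the lowest mean, at 47.9 ± 16.4 RPKM, with Mcm5 at 53.6 ± 34.2 and Mcm4 at 54.8 ± 22.7. Within lines, Mcm7 was lowest in G4314, G9488 and G9529. In G9351 Mcm4 (18 RPKM) and Mcm5 (31.9) lay below Mcm7 (35.1). In G9577 Mcm5 (20.2) lay below Mcm7 (43.3). The scarcest of the 40 transcripts with MYCN on were Orc1 (8.24 ± 4.4 RPKM) and Gins3 (9.25 ± 1.56 RPKM). With MYCN off they were Orc1 (3.72 ± 1.22 RPKM) and Mcm10 (5.49 ± 3.85 RPKM), and Mcm10 reached 18.9 ± 10.9 RPKM with MYCN on.

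Of 39 other replication genes outside the 40, 19 were called higher and 1 lower, with a median log2 change of 0.73. Among all 12835 genes tested, 15.3% were called higher and 15.6% lower, with a median of -0.085. The 8 that rose with the smallest p were Mtbp (2.31-fold), a partner of the firing factor Ticrr, Ssrp1 (1.86-fold) and Supt16 (1.82-fold, with 20.5% of its exon bases shared with Rpgrip1), both subunits of the histone chaperone FACT, the polymerase epsilon subunit Pole3 (1.66-fold), the helicase-related Mcm8 (2.43-fold), the RNase H2 subunits Rnaseh2a (1.71-fold) and Rnaseh2c (1.74-fold), and Rif1 (1.87-fold), which controls the timing of origin firing. Mtbp changed by 1.52, 1.44, 0.78, 1.08 and 1.20 and Pole3 by 0.84, 0.88, 0.61, 0.75 and 0.57. All 8 were also higher in G9488 and G9529. The medians of the 39 genes were 0.19 in G9488 and 0.17 in G9529. There 28 and 27 of the 39 were higher, against 6353 and 6163 of the 12835 genes tested. Rfc1, the large subunit of the loader, rose 1.49-fold. Without G4314, and likewise without G9351, 4 of the 19 stayed past the threshold (Mtbp, Ssrp1, Pole3 and Mcm8), and without the line block only Ssrp1 did. Without G9577 the count was 16. Of all genes tested, 6.64% were higher without G4314, 6.32% without G9351, 1.68% without the block and 17.4% without G9577.

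The gene called lower was Pold4, the smallest subunit of polymerase delta. It stood at 0.882, 0.691, 1.67, 0.95 and 1.96 CPM with MYCN on, and at 2.17, 2.72, 2.25, 1.41 and 9.57 CPM with MYCN off. The fitted level was 2.51-fold lower in doxycycline (log2 change -1.33, SE 0.38, adjusted p = 0.035). Pold4 shares 64.4% of its exon bases with the read-through gene Clcf1-pold4, and reads there were not counted, so its level and change rest on the rest of the gene. These are low levels, from 7 to 21 counts with MYCN on and from 16 to 86 with MYCN off. It was lower in 5 of 5 lines, and the call was lost without G4314, without G9351, without G9577 (log2 change -1.02) and without the line block. At a minimum count of 50 Pold4 was not tested. Within polymerase delta, Pold2 and Pold4 were picked as the largest and smallest fitted change. The log2 change of Pold2 exceeded that of Pold4 in 5 of 5 lines, by 0.93 to 4.14. Pold3 did not pass (log2 change 0.40, adjusted p = 0.119). The list had been chosen with earlier results of these data known, and its counts are a description.

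A RefSeq promoter window (GRCm38.p6, 250 bases before to 50 after the start, upstream-most start of each gene) was at hand for 33 of the 40 genes. An E2F form was present in 12 of the 33 windows (36.4%), against 2.33% of the windows of 27025 genes. The canonical E-box CACGTG was present in 4 (12.1%), those of Chaf1a, Lig1, Pola2 and Rpa1, against 7.24%, and 0 windows held both. The CCAAT box (CCAAT) was present in 21 (63.6%), against 38.0%, and the CHR element (TTTGAA), known from mitotic promoters, in 6 (18.2%), against 18.2%. Both strands were searched, and E2F forms that overlap each other (in Mcm5 and Mcm6) count as 1 window. Median GC content was 61.3% in these windows and 52.7% in all. The 27025 genes were not limited to those expressed in these lines, whereas all 40 passed the low-count filter. The parts of GC content and of expression in the shares were not tested.

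Among the 12 genes called higher, 3 windows held an E2F form (Mcm7, Cdt1 and Pold1) and 1 the E-box (Chaf1a). Among the 21 others with a window, 9 held an E2F form and 3 the E-box. Mcm10, Dbf4 and Rfc4, with the largest rises, had neither. Of the other replication genes, 9 of 31 windows (29.0%) held an E2F form. No test was made of these shares.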

How the data were processed

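RNA-seq was compared in 10 libraries of 5 mouse lines. The authors counted reads per gene with featureCounts 1.6.0, ignoring strand, on UCSC gene models of mm9, per the file headers, and deposited these counts unscaled. Reads were aligned with STAR 2.5.2a after bcl2fastq 1.8.4, per the submitters' processing notes. By the defaults of the featureCounts command in the headers, multi-mapping reads and reads over more than 1 gene were left out. The lengths used for RPKM are the exon lengths deposited beside the counts. Levels between genes are sensitive to these gene models.

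The low-count filter filterByExpr at a minimum count of 10 retained 12835 genes, all 40 members among them, and between 93.9% and 99.9% of the counts of a library. Counts were scaled with TMM factors and tested with edgeR 4.0.16 (R 4.3.3), quasi-likelihood F test, two-sided, with the line as a block, Benjamini-Hochberg adjustment over all genes, 4 residual degrees of freedom and calls at 0.05. The SE was taken from the log2 change and the F statistic (change over root F). Changes in single lines are differences of log2 CPM (prior count 2). Alternatives were no line block, DESeq2 1.42.0, limma-voom (limma 3.58.1), RLE factors, library size alone, no filter or a minimum count of 50, and each line left out.

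The line pairs the libraries by the titles, and this was checked: deviations from the group means correlated with r between 0.721 and 0.873 within a line and at most 0.273 between lines. No 2 libraries of a group agreed within sampling noise. Nothing in the labels says whether cultures were repeated, so p-values rest on 1 culture for each line and condition. The members and lists were chosen with earlier results of these data known. Values in each library are printed for Mcm7, Rfc4, Pcna, every member past the threshold and the largest and smallest change in each role. Of the other replication genes past the threshold, up to 8 by smallest p are named, with their fold changes. Further genes were named after their values were seen. Supt16h of the list was matched to Supt16 through RefSeq synonyms. Promoter sequences and motif searches use RefSeq on GRCm38.p6 and are matched by symbol only. Gins1, Gins2, Gins4, Mcm4, Pole, Prim2 and Rfc2 had no window. The values of 1 marker gene are not reported here.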

Additional observations from a re-analysis of the deposited data

Results flagged for a closer look

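For each of the 40 genes, the 5 values with MYCN on, the 5 values with MYCN off and the 5 changes were examined for a line far from the others with Dixon's test at the 95% level, as were the line medians of the 40 genes and of each role. Of 128 such groups 10 met it, where chance gives about 1 in 20. G9577 with MYCN on was the highest line for Orc1 (47.3 CPM, nearest line 24.4), Gins2 (37.7, nearest 25.3), Mcm10 (149, nearest 68.1), Pold2 (263, nearest 143), Pole2 (34.8, nearest 21.3) and Rpa1 (577, nearest 295). The change of Gins1 in G9577 was 2.89 on the log2 scale, against 0.84 in the nearest line. G9488 was the highest line for Fen1, with 387 CPM with MYCN on (nearest 178) and 394 with MYCN off (nearest 127), and for Pola2 with MYCN off (206, nearest 86.4).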

How the results depend on the processing

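Without the replicate block, that is without the pairing of libraries by line, 0 replication genes were higher, and 215 genes of all tested were higher and 59 lower. Leaving out 1 line at a time gave 2 to 14 replication genes higher, 813 to 2244 genes higher and 916 to 2249 lower. The lowest count of replication genes, 2 (Mcm7 and Pold2), came without G4314 and without G9351. Of 480 recomputed values of single genes, 425 kept their direction and side of the threshold, 36 lost the call, 14 gained one and 5 changed sign. Those 5 were Rpa1 without G9351 (log2 change -0.00822), Rpa1, Lig1 and Slbp without G9577 (-0.25, -0.027 and -0.037) and Slbp without G9351 (-0.026). With 1 line left out at a time, their highest values were 0.23 for Rpa1, 0.51 for Lig1 and 0.22 for Slbp. DESeq2, limma-voom, RLE factors, library size, no filter and a minimum count of 50 gave between 11 and 18 replication genes higher. In the same settings 8.94% to 17.8% of all genes tested were higher. With 4 residual degrees of freedom and 5 lines, the number of lines limits the precision. The replication genes had at least 47 counts in every library.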
